A study of Mus musculus with 9 samples.

Results

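The genes described here are 9 members of the cytokine signalling pathway that runs through Janus kinases (JAKs) and signal transducers and activators of transcription (STATs). They are the kinase gene Jak2, the transcription factor genes Stat2, Stat3, Stat5a, Stat5b and Stat6, and the feedback inhibitor genes Socs1, Socs3 and Cish. They were picked by symbol, with earlier results of these data known. The gene lists used below were chosen with the same knowledge. Shares of these genes or lists that were called are therefore descriptive and test nothing. Each of the 9 was found among the 22064 genes listed, of which 18325 carried values. All 9 were among the 14108 genes with enough counts to be tested.

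Neutrophil RNA was sequenced in 3 groups of 3 libraries from female BALB/c mice. The Ly6Ghi and Ly6Glow groups were sorted from lungs at the macrometastatic stage, after 4T1-LM3 cells had been placed in the mammary fat pad. The remaining group, NL, held neutrophils with high Ly6g from normal lung by its titles and treatment, while its description field names the tumour group with high Ly6g; the titles were followed, and each comparison with NL rests on them. The design asked how the subsets of the metastatic lung differed from each other and from neutrophils of lung without tumour. 4T1-LM3 cells descend from 4T1, a mouse mammary carcinoma line, by repeated passage through mice for growth in lung, and carry luciferase, so a single tumour line is represented. Mice of both tumour groups carried this tumour, and no other agent or allele is named for any group. The mice were bought as young adults, and age at collection is not given in the labels. Cells came from enzyme-digested lung and were sorted on CD45, CD11b and Ly6g. The labels call the 3 libraries of a group replicate biosamples, without saying whether each was 1 mouse or a pool, so the p-values measure the spread between these libraries, which may be technical.

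A cytokine that binds its receptor brings JAK kinases together, and these phosphorylate the receptor and then STAT proteins, which pair and enter the nucleus to switch on genes. Among the genes switched on are those of the SOCS family, whose proteins block the kinase or the receptor and so close a feedback loop. In neutrophils, JAK2 and STAT3 are known for carrying the signal of granulocyte colony-stimulating factor, STAT5 that of granulocyte-macrophage colony-stimulating factor, STAT6 that of interleukin-4 and interleukin-13, and STAT2 that of type I interferon. RNA levels do not show how much of a STAT protein is phosphorylated.

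Total counts per library, in units of 1e6, ran from 15.3 to 17.8. The smallest count behind any value of the 9 genes was 131 (Socs1) and the largest 19204 (Socs3). Levels were compared between libraries as CPM (counts per 1e6 reads) scaled by the trimmed mean of M-values (TMM), and between genes as FPKM, which also divides by transcript length. Fold changes and adjusted p-values came from edgeR's quasi-likelihood test with Benjamini-Hochberg adjustment over all tested genes. A gene was called higher or lower when its adjusted p was at most 0.05 and its log2 fold change was beyond 0.58 in size.

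Some features of the libraries bear on every comparison. First, mRNA of Ly6g itself differed little between the sorted tumour groups, in a direction that depended on the scaling. It read 379.8, 361 and 380.06 CPM in the Ly6Ghi libraries, 385, 403 and 394 in Ly6Glow, and 120.18, 120.18 and 118 in NL. Every Ly6Glow library was thus slightly above every Ly6Ghi library with TMM (log2 fold change 0.08, SE 0.03, adjusted p = 0.0577 in edgeR, not called). In FPKM every Ly6Glow library was below, at 358, 373 and 366 against 414, 396 and 417. The libraries labelled as high for Ly6g from normal lung had the lowest level.

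Second, the NL libraries held less mRNA of neutrophil markers and more of epithelial markers. The 12 neutrophil markers, led by S100a9, summed to 104982, 102445 and 103217 CPM in Ly6Ghi, to 86363, 88247 and 87670 in Ly6Glow, and to 23139, 22940 and 22886 in NL. Against NL 12 of 12 were higher in Ly6Ghi and 11 in Ly6Glow, beside 26.3% and 28.7% of all tested genes. Between the tumour groups 4 were higher (33.3%) and 3 lower (25.0%), beside 9.29% and 15.9% of all tested genes, with a median of 0.01. The lower sum in Ly6Glow was thus not shared by the whole list. Ngp (17196 to 5901 CPM), Ltf (11444 to 3052) and Camp (934 to 159) fell while Csf3r, Cxcr2, Retnlg and Mmp8 rose. Both on log2(FPKM + 1) and with total counts, 2 were higher and 4 lower. For Cxcr2 the study gives the other direction, higher in its Ly6g-high neutrophils, from single-cell RNA and flow cytometry. Beside 36.6% and 40.8% of all tested genes, 9 of the 9 epithelial markers, led by the surfactant gene Sftpc, were lower in Ly6Ghi and 8 in Ly6Glow than in NL. Their sum was 135, 136 and 129 CPM in Ly6Ghi, 135, 137 and 132 in Ly6Glow, and 1524, 1390.5 and 1496 in NL. In bulk RNA of this kind, a change in the share of neutrophils and a change in RNA per cell cannot be told apart, and what other cells contributed to the values of the 9 genes was not tested.

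Last, the scaling between groups was large. TMM factors were 0.945 to 0.950 in Ly6Ghi, 0.803 to 0.807 in Ly6Glow and 1.30 to 1.32 in NL, and the 10 most abundant genes took 11.5% to 11.7% of counts in Ly6Ghi, 9.37% to 9.53% in Ly6Glow and 6.28% in each NL library. With TMM the median log2 fold change over all tested genes was -0.04 for Ly6Glow versus Ly6Ghi, -0.09 for Ly6Ghi versus NL and -0.16 for Ly6Glow versus NL. With total counts alone these medians were -0.28, -0.55 and -0.86, and on log2(FPKM + 1) they were -0.13, -0.32 and -0.49. The share of higher genes among all calls moved with them. It was 36.8%, 41.8% and 41.3% with TMM, 13.3%, 20.3% and 14.3% with total counts, and 14.3%, 21.8% and 14.9% on log2(FPKM + 1), in the same order. Some values of single genes are therefore also given relative to the median of all genes, a difference that a change of library scaling factors by itself leaves in place.

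Within each group the 9 genes spanned a wide range of FPKM. Socs3 stood first in every group, at 263 ± 8.44 FPKM in Ly6Ghi, 389 ± 11.6 in Ly6Glow and 390.2 ± 24.3 in NL (mean ± SD, n = 3). Stat3, the target of signals from the interleukin-6 and granulocyte colony-stimulating factor receptors, came second at 144 ± 1.47, 191 ± 0.774 and 152 ± 2.13 FPKM. Stat6 followed at 97.2 ± 1.19, 117 ± 1.51 and 86.2 ± 1.49 FPKM, and Jak2 came after it at 60.5 ± 1.54, 84.1 ± 3.77 and 53.5 ± 3.69. The lower ranks changed places. In Ly6Ghi the order went on with Stat5b (31.7 FPKM), Stat2 (17.3), Cish (16.3), Socs1 (10.5) and Stat5a (5.52), and the libraries of Stat2 and Cish overlapped. Ly6Glow kept that order, with Stat5b at 30.2 FPKM, Stat2 at 19.4, Cish at 9.81, Socs1 at 7.37 and Stat5a at 3.62, and no neighbours overlapped. In NL, Stat2 (31.9 FPKM) stood above Cish (26.1), Stat5b (25.2), Socs1 (23.2) and Stat5a (6.83), with Cish and Stat5b overlapping. The ratio of the first to the last gene was 47.6 in Ly6Ghi, 107.7 in Ly6Glow and 57.1 in NL.

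The position of the genes is relevant to some of the counts. Stat5b, Stat5a and Stat3 lie next to each other on chromosome 11 within 158864 bases (build GRCm38.p6, RefSeq): Stat5b at chr11:100780731-100859004 on the minus strand, Stat5a at chr11:100859351-100885169 on the plus strand and Stat3 at chr11:100886806-100939594 on the minus strand. In GENCODE the ends of Stat5a and Stat3, on opposite strands, overlap by 72 bases, while RefSeq leaves a gap of 1636 bases between them. The library protocol kept strand, but whether counting used it is not given in the sources used here, and Stat3 had far more reads than Stat5a. Stat5a and Stat5b are also close copies of each other: of the windows of 150 bases in the Stat5a transcript, 175 (4.68%) occur unchanged in that of Stat5b, and of the windows of 50 bases 608 (15.8%). How reads from these stretches were assigned was not tested, and Stat5a had the lowest FPKM of the 9 genes.

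RefSeq promoter windows of 300 bases, 250 before and 50 after a start, matched each of the 9 genes by gene ID, with 11 windows in all since Stat5a and Stat5b have 2 each (build GRCm38.p6). They were searched for TTCNNNGAA, the palindrome that STAT pairs are known to bind, which reads the same on both strands, and for TTCNNNNGAA, its longer form known for STAT6. Another motif, GAAANNGAAA (TTTCNNTTTC on the other strand), is part of the interferon-stimulated response element. Of 32851 windows, 8.30% held the first, 6.95% the second and 3.44% the third. The stretches of the 4 genes with a match to any of these 3 motifs follow, with matches in capitals. They are Socs3 (chr11:117969502-117969531, minus strand), Cish (chr9:107296654-107296683, plus strand), Stat2 (chr10:128270248-128270497, plus strand) and Socs1 (chr16:10785537-10785786, minus strand). The stretch of Cish lies in an exon of Cish in GENCODE and the other 3 lie outside exons.
Socs3: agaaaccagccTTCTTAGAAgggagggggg
Cish: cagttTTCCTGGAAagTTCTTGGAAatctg
Stat2: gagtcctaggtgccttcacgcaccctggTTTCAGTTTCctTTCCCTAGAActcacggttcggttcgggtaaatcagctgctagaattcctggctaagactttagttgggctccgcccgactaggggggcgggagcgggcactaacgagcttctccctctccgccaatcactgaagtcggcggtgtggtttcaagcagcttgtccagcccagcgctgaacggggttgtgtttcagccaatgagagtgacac
Socs1: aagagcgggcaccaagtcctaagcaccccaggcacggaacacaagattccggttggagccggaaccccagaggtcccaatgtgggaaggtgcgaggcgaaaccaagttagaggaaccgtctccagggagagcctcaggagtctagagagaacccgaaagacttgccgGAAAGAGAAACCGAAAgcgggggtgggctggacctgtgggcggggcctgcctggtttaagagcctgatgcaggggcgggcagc
The match in Socs3 began 154 bases before the start on which its RefSeq window is built, a start that lies inside the gene span given with Socs3 below. The pair in Cish began at bases 1 and 12 from the start. Stat2 held GAAANNGAAA on the other strand, from 222 bases before the start, and TTCNNNNGAA from 210 before it. Socs1 held GAAANNGAAA at 83 and 77 bases before the start, as overlapping matches. The windows of Jak2, Stat3, Stat5a, Stat5b and Stat6 held none of the 3 motifs, which says only that these letters are not in those windows. A match only describes the letters.

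Among the kinases, Jak2 (gene ID 16452, chr19:29251803-29313095) was higher in Ly6Glow than in either group of Ly6g-high cells. Jak2 transmits signals of the granulocyte colony-stimulating factor, growth hormone and interferon gamma receptors. It read 295, 283 and 298 CPM in the Ly6Ghi libraries, 470.04, 458 and 499.9 in Ly6Glow, and 179, 196 and 185 in NL. The 3 groups did not overlap, and every Ly6Glow library lay above every other library. Jak2 was 1.63-fold higher in Ly6Glow than in Ly6Ghi (log2 fold change 0.71, SE 0.04, adjusted p = 1.28e-12 in edgeR, 3 of 3 libraries higher). Its level was 1.57-fold higher in Ly6Ghi than in NL (log2 fold change 0.65, SE 0.04, adjusted p = 1.46e-12) and 2.55-fold higher in Ly6Glow than in NL (1.35, SE 0.04, adjusted p = 2.12e-18). The call between the tumour groups was lost on log2(FPKM + 1) and with total counts, at 0.47 on both. That between Ly6Ghi and NL was lost on these at 0.18 and with upper-quartile scaling at 0.45.

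Among the STATs, Stat3 (gene ID 20848) showed the same order. It read 678, 682 and 667 CPM in Ly6Ghi, 1059, 1056 and 1057 in Ly6Glow, and 530.04, 506 and 517 in NL. The groups did not overlap, and the SD over 3 libraries was 7.59 CPM in Ly6Ghi, 1.24 in Ly6Glow and 12.1 in NL. Stat3 was 1.57-fold higher in Ly6Glow than in Ly6Ghi (log2 fold change 0.65, SE 0.03, adjusted p = 3.72e-14 in edgeR). Against NL it was 2.04-fold higher in Ly6Glow (log2 fold change 1.03, SE 0.03, adjusted p = 1.18e-18). These calls were lost on log2(FPKM + 1) and with total counts, at 0.41 and 0.33 on both. In Ly6Ghi against NL it stayed within the fold limit at 0.38 (SE 0.03, adjusted p = 6.00e-11), and this direction turned on FPKM, where NL read 152 and Ly6Ghi 144 (log2 fold change -0.08).

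Stat6 (gene ID 20852, chr10:127642955-127660987), the STAT of interleukin-4 and interleukin-13, read 390.2, 386 and 379 CPM in Ly6Ghi, 545, 551 and 535 in Ly6Glow, and 253, 239.9 and 249.97 in NL. The Ly6Glow libraries were again highest and the NL libraries lowest, with no overlap. Its log2 fold change was 0.64 for Ly6Ghi versus NL (SE 0.03, adjusted p = 4.04e-14 in edgeR) and 1.14 for Ly6Glow versus NL (SE 0.03, adjusted p = 1.10e-18), both called. Both calls were lost on log2(FPKM + 1) and with total counts, at 0.17 and 0.43, and the call in Ly6Ghi also with upper-quartile scaling, at 0.45. Between the tumour groups it was 0.50 (SE 0.03, adjusted p = 1.31e-11), short of the fold limit.

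Stat5b and its neighbour Stat5a followed different orders. Stat5b (gene ID 20851) read 165, 168 and 162 CPM in Ly6Ghi, 193, 188 and 186 in Ly6Glow, and 96.2, 93.4 and 95.9 in NL. Stat5a (gene ID 20850) read 21.8, 20.9 and 21.2 CPM in Ly6Ghi, 17.5, 17.0 and 15.2 in Ly6Glow, and 20.6, 17.5 and 19.6 in NL. Stat5b was thus lowest in NL, while Stat5a was lowest in Ly6Glow and its Ly6Glow and NL libraries overlapped. Stat5b was called higher against NL in Ly6Ghi (log2 fold change 0.79, SE 0.04, adjusted p = 5.87e-15 in edgeR) and in Ly6Glow (0.99, SE 0.04, adjusted p = 1.02e-16), calls lost on log2(FPKM + 1) (0.32 and 0.25) and with total counts (0.33 and 0.29). Stat5a was called in no comparison with TMM scaling, with log2 fold changes of -0.36, 0.15 and -0.21 in the order Ly6Glow versus Ly6Ghi, Ly6Ghi versus NL and Ly6Glow versus NL. Between the tumour groups Stat5b was at 0.20 with TMM, not called, and turned to -0.06 on log2(FPKM + 1) and -0.04 with total counts, where Stat5a was at -0.50 and -0.60. Taken as a ratio within each library, which no scaling between libraries touches, Stat5b over Stat5a in FPKM was 5.67, 5.90 and 5.64 in Ly6Ghi, 8.09, 8.18 and 8.87 in Ly6Glow, and 3.46, 3.98 and 3.67 in NL. The ratio separated the 3 groups without overlap, though exact permutation with 3 libraries on each side cannot bring p under 0.1.

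Stat2 (gene ID 20847, chr10:128270498-128292853), which carries the type I interferon signal, followed another order. It read 79.8, 80.5 and 82.3 CPM in Ly6Ghi, 107, 111 and 103 in Ly6Glow, and 111, 104 and 109 in NL. Ly6Ghi was lowest, and the Ly6Glow and NL libraries overlapped. No comparison of Stat2 passed the fold limit with TMM, at 0.40 (SE 0.04) for Ly6Glow versus Ly6Ghi, -0.42 (SE 0.04) for Ly6Ghi versus NL and -0.01 (SE 0.04) for Ly6Glow versus NL. On log2(FPKM + 1) the last 2 values were -0.84 and -0.69, both called lower by limma.

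The 3 feedback inhibitors did not move as a group. Socs3 (gene ID 12702, chr11:117966079-117970336), which shuts off receptors that signal through STAT3, read 795, 749.9 and 748 CPM in Ly6Ghi, 1342, 1386 and 1298 in Ly6Glow, and 862, 749 and 837 in NL. The Ly6Glow libraries were all above the others, and Ly6Ghi and NL overlapped. Socs3 was 1.76-fold higher in Ly6Glow than in Ly6Ghi (log2 fold change 0.81, SE 0.04, adjusted p = 3.99e-13 in edgeR), the largest of the 9 genes in that comparison, and at 0.57 and 0.58 on log2(FPKM + 1) and total counts it fell just short of the limit. Against NL it was called higher in Ly6Glow with TMM (0.72, SE 0.04, adjusted p = 4.86e-13), but on FPKM the means of those groups were 389 and 390.2 and the log2 fold change was -0.001.

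Cish (gene ID 12700, chr9:107296659-107302784), a feedback gene of STAT5, was lowest where Socs3 was highest. It read 49.6, 53.9 and 50.1 CPM in Ly6Ghi, 36.4, 37.6 and 35.5 in Ly6Glow, and 63.3, 53.8 and 61.9 in NL. Every Ly6Glow library lay below every other library, and Ly6Ghi and NL overlapped. Its log2 fold change was -0.49 for Ly6Glow versus Ly6Ghi (SE 0.07, adjusted p = 1.54e-06 in edgeR), not called, and -0.71 for Ly6Glow versus NL (SE 0.06, adjusted p = 7.05e-10), called lower. Socs3 and Cish thus differed in direction of value between the tumour groups (0.81, called, and -0.49, not called). Both windows shown above held TTCNNNGAA, as did 8.30% of all windows, and any bearing of the motif on these values was not tested. Socs1 (gene ID 12703, chr16:10783808-10785536), an inhibitor of interferon receptors and JAKs, read 14.7, 11.6 and 13.3 CPM in Ly6Ghi, 10.6, 12.0 and 10.1 in Ly6Glow, and 23.1, 19.8 and 21.6 in NL. NL was highest, and the tumour groups overlapped. Socs1 was called lower than in NL both in Ly6Ghi (-0.70, SE 0.09, adjusted p = 1.26e-07) and in Ly6Glow (-0.98, SE 0.09, adjusted p = 2.74e-09).

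**Figure D1:**
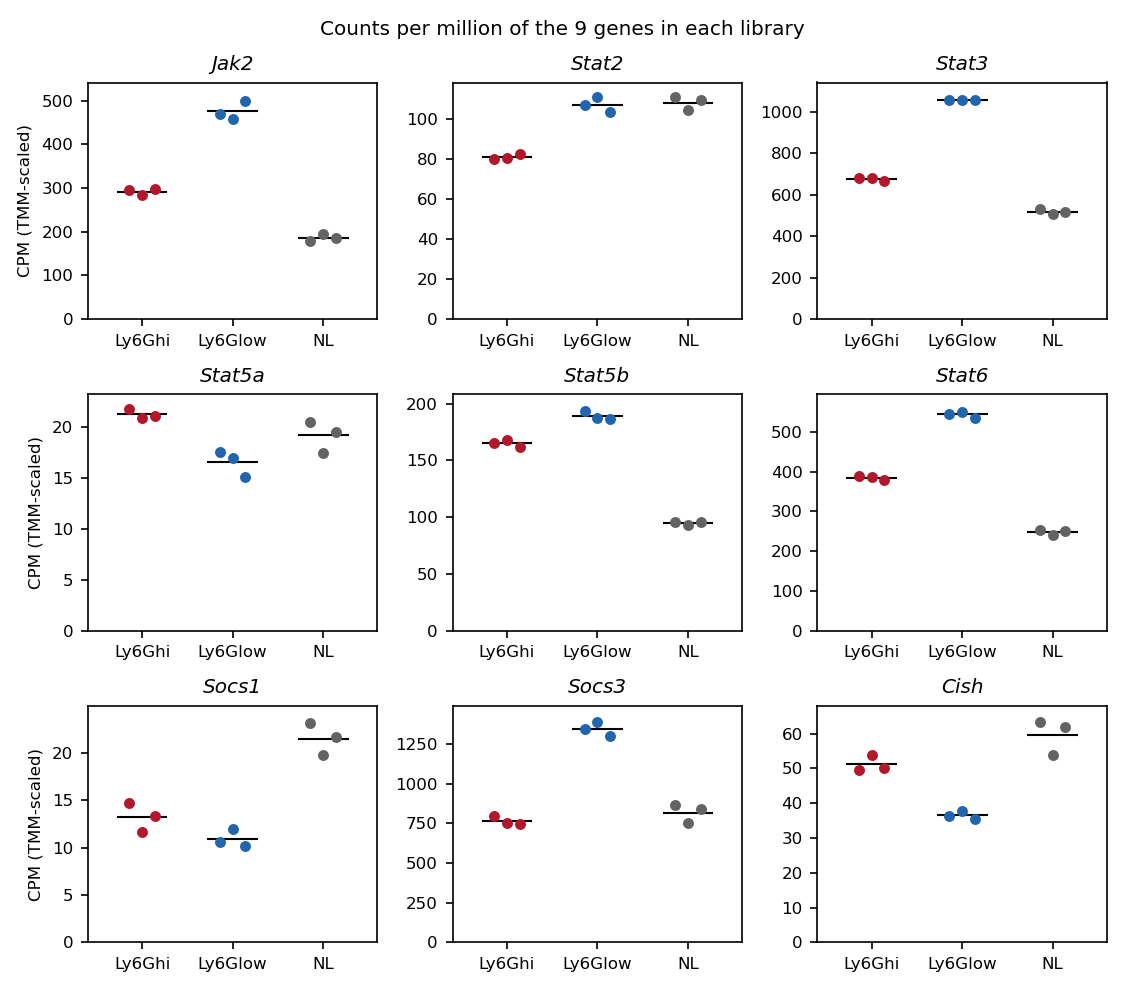
CPM (TMM-scaled, vertical axis from 0) of the 9 genes in each of the 9 libraries, with points for libraries and a line for the group mean. Jak2, Stat3 and Stat6 were highest in Ly6Glow and lowest in NL without overlap, Stat2 was lowest in Ly6Ghi, Cish was lowest in Ly6Glow and Socs1 was highest in NL.

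The makeup of the inhibitor family differed between groups within single libraries. In FPKM, mean Socs3 was higher in Ly6Glow than in Ly6Ghi while Cish and Socs1 were not. Between Ly6Glow and NL mean Socs3 was level (389 and 390.2), while Cish (9.81 and 26.1) and Socs1 (7.37 and 23.2) were lower in Ly6Glow. Socs3 over Cish in FPKM was 17.3, 15.1 and 16.1 in Ly6Ghi, 39.5, 39.9 and 39.8 in Ly6Glow, and 14.9, 15.2 and 14.7 in NL. The ratio in Ly6Glow was above that in every other library, and the Ly6Ghi and NL libraries overlapped. Of the summed FPKM of Cish and Socs1 to Socs7, Socs3 held 85.2% ± 0.449 in Ly6Ghi, 91.9% ± 0.142 in Ly6Glow and 82.8% ± 0.439 in NL (mean ± SD, n = 3). Cish held 5.29% ± 0.367, 2.31% ± 0.0127 and 5.54% ± 0.124 of that sum. In the same way, Stat3 held 48.3% ± 0.203 of the summed FPKM of Stat2 to Stat6 in Ly6Ghi, 52.7% ± 0.447 in Ly6Glow and 49.4% ± 0.319 in NL, and Stat5a held 1.86% ± 0.0454, 0.999% ± 0.0645 and 2.22% ± 0.135. Of the 4 JAK genes, Jak2 held 27.4% ± 0.727, 33.0% ± 1.09 and 27.6% ± 1.70. Shares do not depend on the scaling between libraries, and they showed Stat3, Jak2 and Socs3 taking more of these sums in Ly6Glow than in Ly6Ghi.

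**Figure D2:**
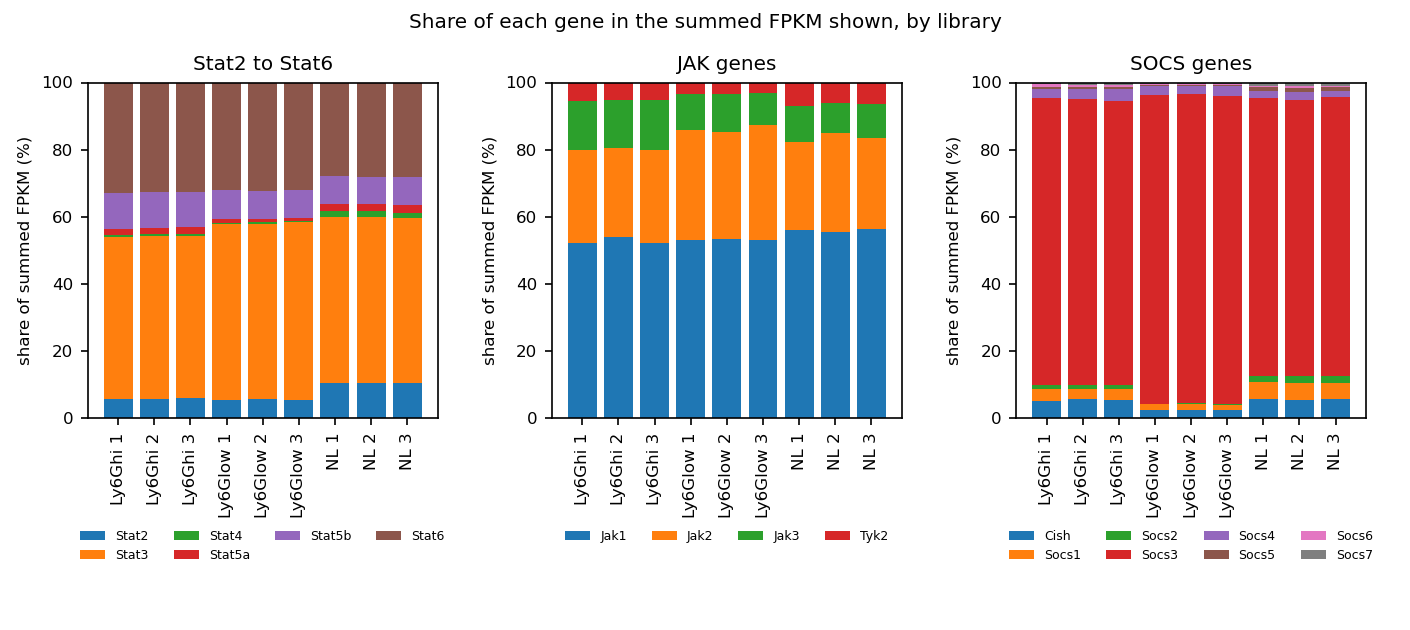
Share of each gene in a summed FPKM (vertical axis, percent), one bar for each library, for Stat2 to Stat6, the 4 JAK genes and the 8 genes of the SOCS family. Socs3 filled most of the SOCS bar in every library, with a mean of 91.9% in Ly6Glow and 85.2% in Ly6Ghi.

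The 9 genes were chosen with earlier results of these data known, so the shares called are only descriptive. In Ly6Glow versus Ly6Ghi, 3 of the 9 genes (33.3%) were called higher, Jak2, Stat3 and Socs3, where 9.29% of all tested genes were called higher. None was called lower, where 15.9% of all tested genes were; at an unadjusted p of at most 0.05 the count lower past the fold limit was also 0, and with DESeq2 it was 0. The median log2 fold change of the 9 genes was 0.40, beside -0.04 over all tested genes, and 0.16 on log2(FPKM + 1) (beside -0.13) and 0.17 with total counts (beside -0.28). Groups did not overlap for 8 of the 9 genes, the exception being Socs1, and for 62.1% of all tested genes. With DESeq2 size factors or upper-quartile scaling the same 3 genes passed the limit. With total counts alone Cish and Stat5a were called lower and none higher, since Jak2, Stat3 and Socs3 stood at 0.47, 0.41 and 0.58, the last just under the limit. On log2(FPKM + 1), limma called Cish lower at -0.68 and none of the 9 genes higher. Over all genes these settings gave 4300 calls (13.3% of them higher) and 2243 calls (14.3%), so most calls were lower there too. Relative to the median of all genes Jak2 was at 0.75, Stat3 at 0.69, Socs3 at 0.85 and Cish at -0.45 under TMM, and at 0.60, 0.54, 0.70 and -0.54 on log2(FPKM + 1). Markers of some other cells fell in the same comparison, 11 of 14 of alveolar macrophages, 4 of 5 of eosinophils, 5 of 5 of B cells and 4 of 6 of basophils and mast cells. So did 3 of 9 of T and natural killer cells, 3 of 11 of monocytes and macrophages and 3 of 9 of epithelium, with 0 higher in each. None of 6 endothelial and 5 fibroblast markers was called, and of 7 dendritic cell markers 1 was higher and 1 lower. Their part in these values was not tested.

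In Ly6Ghi versus NL, Stat5b, Stat6 and Jak2 were called higher, 3 of 9 (33.3%) where 26.3% of all tested genes were, so the share was near the background. Socs1 alone was called lower, 1 of 9 (11.1%) where 36.6% of all tested genes were. The median of the 9 genes was 0.15, beside -0.09 over all tested genes, and turned to -0.04 with upper-quartile scaling (beside -0.28), -0.26 on log2(FPKM + 1) (beside -0.32) and -0.32 with total counts (beside -0.55). The groups did not overlap for 7 of the 9 genes, against 85.2% of all. With upper-quartile scaling Jak2 and Stat6 fell under the limit, at 0.45 and 0.45, and Stat2 was called lower at -0.61. On log2(FPKM + 1) none of the 9 genes was called higher, and Stat2, Socs1 and Cish were called lower. Over all genes that setting gave 6563 calls, 21.8% of them higher, so most calls were lower there too.

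In Ly6Glow versus NL, 5 of the 9 genes (55.6%) were called higher, Jak2, Stat6, Stat3, Stat5b and Socs3, where 28.7% of all tested genes were. Socs1 and Cish were called lower, 2 of 9 (22.2%) where 40.8% of all tested genes were. The median of the 9 genes was 0.72, beside -0.16 over all tested genes, but -0.001 on log2(FPKM + 1) (beside -0.49) and 0.02 with total counts (beside -0.86). The groups did not overlap for 7 of the 9 genes, against 86.8% of all. On log2(FPKM + 1) only Jak2 was called higher, at 0.64, while Stat2, Stat5a, Socs1 and Cish were called lower. Over all genes that setting gave 7563 calls, 14.9% of them higher, so most calls were lower there too. Under total counts Jak2, Stat6, Stat3, Stat5b and Socs3 stood at 0.65, 0.43, 0.33, 0.29 and 0.02, and Socs3 also lost its call with upper-quartile scaling, at 0.53. Relative to the median of all genes they were at 1.51, 1.29, 1.19, 1.15 and 0.87 with TMM and 1.13, 0.92, 0.82, 0.74 and 0.49 on log2(FPKM + 1). The comparisons with NL share the NL libraries, and the neutrophil and epithelial marker sums given above moved between the same groups.

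**Figure D3:**
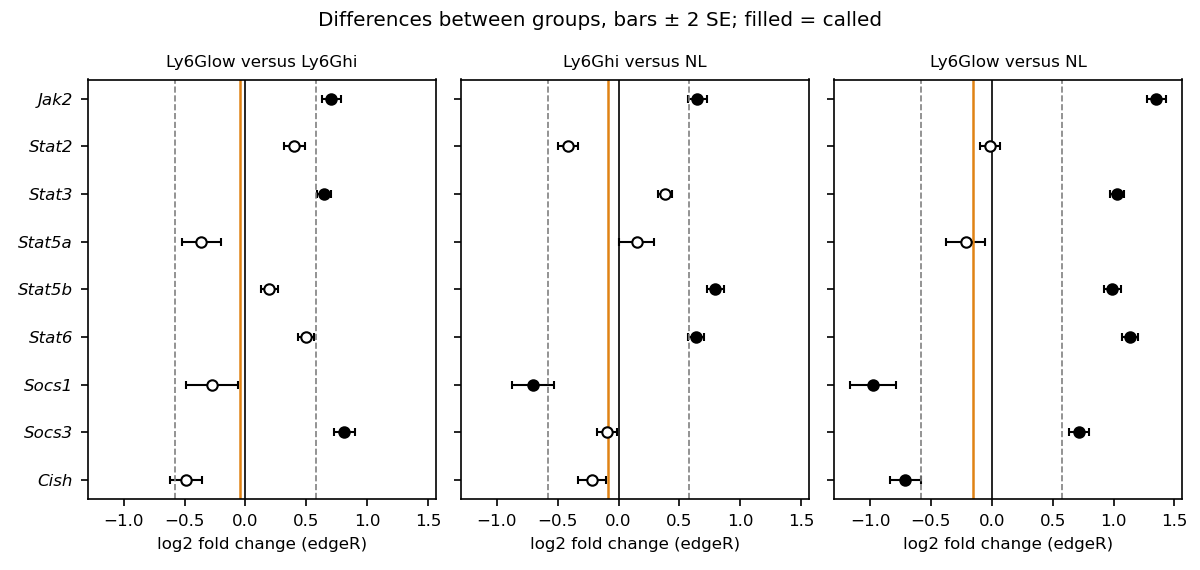
Log2 fold change (horizontal axis, edgeR with TMM scaling) of the 9 genes in the 3 comparisons, with bars of 2 SE to each side, filled points for called genes, dashed lines at the fold limit and an orange line at the median of all tested genes. Jak2 was called higher in each comparison with this scaling, and lost the call between Ly6Glow and Ly6Ghi and between Ly6Ghi and NL on total counts.

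**Figure D4:**
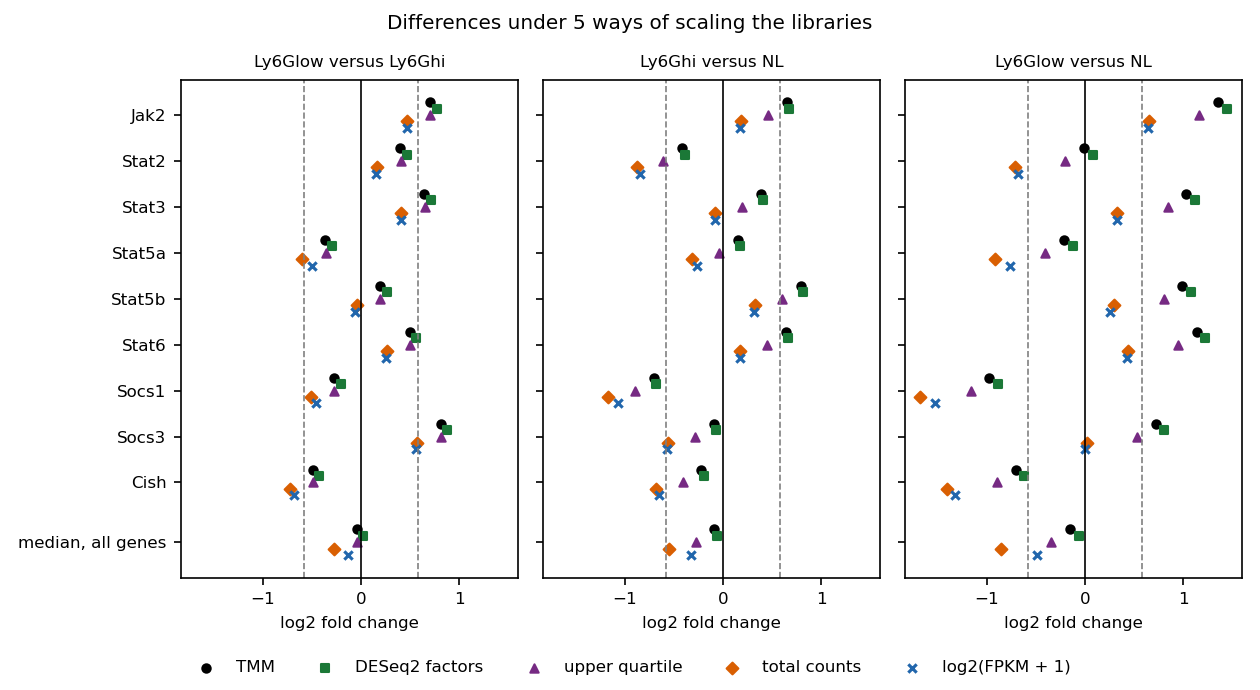
Log2 fold change (horizontal axis) of the 9 genes and the median of all tested genes under 5 ways of scaling the libraries, in the 3 comparisons, with dashed lines at the fold limit. Total counts and FPKM moved every gene and the median to the left together, so that Stat5b between Ly6Glow and Ly6Ghi, and Stat3 and Stat5a between Ly6Ghi and NL, crossed 0, as did Socs3 between Ly6Glow and NL on FPKM alone.

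The genes whose profiles over the 9 libraries were most like each of the 9 were found by the Euclidean distance between log2 CPM centred on each gene's mean, among tested genes with at least 10 CPM in a group. For Jak2 these were Usp32 (distance 0.06) and Hnrnpu (0.09), for Stat3 Rnf114 (0.08) and Slc20a1 (0.11), and for Stat6 Map3k3 (0.05) and Lsp1 (0.08). Stat5b lay nearest to Baz2a (0.07) and Arf1 (0.08), Socs3 to Themis2 (0.11) and Itpkb (0.14), and Stat2 to Cd9 (0.10) and Ttpal (0.13). Cish lay nearest to Ube2l6 (0.13) and Jpt1 (0.15). Stat5a lay nearest to Inppl1 (0.13) and Rpl13a (0.18). Socs1, at Ago1 (0.24) and D5Ertd579e (0.25), had the most distant nearest gene of the 9. None of the 9 genes was the nearest of another.

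The other genes of the pathway were taken from 6 lists, also chosen with earlier results of these data known, with 77 of 81 genes tested. In Ly6Glow versus Ly6Ghi, 10 were called higher and 6 lower, with a median log2 fold change of 0.06. In Ly6Ghi versus NL, 24 were higher and 30 lower (median -0.01), and in Ly6Glow versus NL 32 were higher and 29 lower (median 0.31). These counts stand beside medians of -0.04, -0.09 and -0.16 over all tested genes. As shares, 13.0% and 7.79% in the comparison of the tumour groups stand beside 9.29% and 15.9% of all tested genes. Against NL, 31.2% and 39.0% in Ly6Ghi stand beside 26.3% and 36.6%, and 41.6% and 37.7% in Ly6Glow beside 28.7% and 40.8%. On log2(FPKM + 1) they were 5 higher and 6 lower, 14 and 30, and 11 and 32, and with total counts 5 and 13, 18 and 34, and 12 and 36.

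Of Jak1, Jak3, Tyk2 and Stat4, none was called between the tumour groups in either direction, by edgeR at an adjusted or unadjusted p or by DESeq2. With only 4 genes this is near the 9.29% higher and 15.9% lower of all tested genes in edgeR. Jak3, the kinase of the common gamma chain, was higher than in NL in Ly6Ghi (127 against 54.3 CPM, log2 fold change 1.22, SE 0.06) and in Ly6Glow (124 CPM, 1.195, SE 0.06), and Jak1 in Ly6Glow (786 against 391 CPM, 1.01, SE 0.03). The Ly6Glow calls were lost on log2(FPKM + 1) and with total counts, Jak3 at 0.46 and 0.49 and Jak1 at 0.32 and 0.31. Stat4, the STAT of interleukin-12, was lower than in NL in both, at -0.96 (SE 0.10) in Ly6Ghi and -1.16 (SE 0.11) in Ly6Glow.

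Of the 5 other SOCS genes, 1 was called lower in Ly6Glow than in Ly6Ghi (20.0%, near the 15.9% of all tested genes). This was Socs2, a feedback gene of STAT5 like Cish, chosen for mention after its values were seen. It read 8.43, 7.26 and 7.99 CPM in Ly6Ghi, 3.57, 4.06 and 3.74 in Ly6Glow, and 17.3, 19.0 and 18.7 in NL. The 3 groups did not overlap, and Ly6Glow was lowest (log2 fold change -1.05, SE 0.13 against Ly6Ghi). Against NL, Socs2 and Socs5 were lower in Ly6Ghi (-1.22, SE 0.08, and -1.09, SE 0.07) and in Ly6Glow (-2.27, SE 0.10, and -1.26, SE 0.08), with Socs7 called lower as well in both. These 3 of 5 genes (60.0%) stand beside 36.6% of all tested genes in Ly6Ghi and 40.8% in Ly6Glow. With DESeq2, 2 of the 5 genes were called lower in Ly6Glow than in NL, near the 40.8% of all tested genes in edgeR. Socs4 was higher than in NL in Ly6Glow (0.95, SE 0.08), a call lost on log2(FPKM + 1) and with total counts (0.25 with the latter).

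Cytokine receptors gave 5 higher (15.6%) and 3 lower (9.38%) of 32 tested in Ly6Glow versus Ly6Ghi, where all tested genes gave 9.29% and 15.9%. They gave 3 and 1 on log2(FPKM + 1), 3 and 3 with total counts and 7 and 3 with DESeq2. The largest increases among called receptors with at least 10 CPM were in Il13ra1, a chain of the receptor for interleukin-13 (614 against 321 CPM, log2 fold change 0.94, SE 0.04), and Csf3r, the receptor of granulocyte colony-stimulating factor (6928 against 3745 CPM, 0.89, SE 0.03). Both lie upstream of members described above, Il13ra1 of Stat6 and Csf3r of Jak2 and Stat3. Against NL, 8 of 32 receptors were higher (25.0%) and 16 of 32 lower in Ly6Ghi, and 9 higher (28.1%) and 16 lower in Ly6Glow. All tested genes gave 26.3% and 36.6%, and 28.7% and 40.8%, so the higher shares were near the background and the lower above it. The counts of receptors became 5 and 16, and 6 and 16, on log2(FPKM + 1), and 6 and 18, and 6 and 17, with total counts. Among those with at least 10 CPM, the interferon gamma receptor genes Ifngr1 and Ifngr2 rose most in Ly6Ghi (1.65, SE 0.03, and 1.44, SE 0.04), and Il13ra1 and Ifngr1 in Ly6Glow (2.16, SE 0.04, and 2.02, SE 0.03). At that level the receptors that fell most were Osmr (-3.27, SE 0.09) and Lepr (-2.93, SE 0.08) in Ly6Ghi, and Il12rb2 (-3.62, SE 0.16) and Osmr (-3.01, SE 0.10) in Ly6Glow. Markers of endothelial cells (mean sum 138, 174 and 929 CPM in Ly6Ghi, Ly6Glow and NL, led by Pecam1), of fibroblasts (53.0, 54.9 and 533 CPM, led by Col3a1) and of epithelium fell in the same comparisons, and their part in the receptor values was not tested.

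Inhibitors outside the SOCS family were phosphatases, PIAS proteins and ubiquitin ligases, together with Sh2b3 and Usp18, which belong to none of these classes. Of 13, 2 were higher (15.4%) in Ly6Glow than in Ly6Ghi and 0 lower, beside 9.29% and 15.9% of all tested genes. The counts were 2 and 0 at an unadjusted p, 4 and 0 with DESeq2, 0 and 0 on log2(FPKM + 1) and 0 and 1 with total counts. The one above 10 CPM was Ptpn2 (64.2 against 42.0 CPM, log2 fold change 0.61, SE 0.06), a phosphatase of JAKs and STATs. Without the third Ly6Glow library Ptpn2 was at 0.56, under the limit. Against NL, 6 were higher (46.2%) and 2 lower (15.4%) in Ly6Ghi, and 8 higher (61.5%) and 2 lower in Ly6Glow, beside 26.3% and 36.6%, and 28.7% and 40.8% of all tested genes. These became 3 and 2, and 2 and 3 on log2(FPKM + 1), and with total counts 5 and 3, and 2 and 4. Ptpn6, the phosphatase SHP-1 of blood cells, rose to 547 and 505 CPM from 193 in NL (1.503, SE 0.04, and 1.39, SE 0.04), with Cbl (1.14, SE 0.04) in Ly6Ghi and Ptpn1 (1.30, SE 0.03) in Ly6Glow. Usp18 and Cblb were lower in both tumour groups.

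Among 7 nuclear and adaptor partners of the STATs, none was called between the tumour groups in either direction by edgeR, where 9.29% of all tested genes were higher and 15.9% lower. None was called at an unadjusted p or by DESeq2 either, while 1 partner was called lower both on log2(FPKM + 1) and with total counts. Against NL 4 were higher (57.1%, beside 26.3% of all tested genes) in Ly6Ghi, led by Ndufa13 (1.19, SE 0.08) and the coactivator Ep300 (0.88, SE 0.04), and 6 (85.7%, beside 28.7%) in Ly6Glow, led by Ep300 (1.11, SE 0.04) and Stam (0.88, SE 0.07). These counts were 1 and 0 on log2(FPKM + 1).

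Genes known as targets of each STAT were then counted, in lists that share Pim1 and Bcl6 (STAT3 and STAT5) and Il4ra (STAT3 and STAT6). These lists too were chosen with earlier results of these data known, so their shares are only descriptive. Bcl6 is known to be induced by STAT3 and repressed by STAT5, so a higher count of targets does not stand for more STAT activity. In the comparison of the tumour groups, 9.29% of all tested genes were higher and 15.9% lower. Of 15 STAT3 targets, 7 were higher (46.7%) and 2 lower (13.3%) in Ly6Glow than in Ly6Ghi (median log2 fold change 0.52), which became 2 higher and 3 lower both on log2(FPKM + 1) and with total counts. Cebpb, a granulocyte transcription factor, read 2248 against 1211 CPM (0.89, SE 0.06), Hif1a 863 against 482 (0.84, SE 0.04), and the dividing-cell gene Birc5 3.15 against 14.2 (-2.16, SE 0.15). Against NL, 6 were higher (40.0%) and 2 lower (13.3%) in Ly6Ghi, beside 26.3% and 36.6% of all tested genes, and 10 higher (66.7%) and 2 lower in Ly6Glow, beside 28.7% and 40.8% (4 and 2, and 5 and 3, both on log2(FPKM + 1) and with total counts), with Lcn2 (2.62, SE 0.04, and 2.21, SE 0.04) and Bcl6 (1.76, SE 0.04, and 2.44, SE 0.04) rising most and Myc and Vegfa falling. Lcn2 is also among the neutrophil markers.

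Of 10 STAT5 targets, 5 were higher (beside 9.29% of all tested genes) and 2 lower (20.0%, near 15.9%) in Ly6Glow than in Ly6Ghi (median 0.49), and 1 higher and 2 lower both on log2(FPKM + 1) and with total counts. Bcl2l1, which encodes the survival protein Bcl-xL, read 157, 156 and 146 CPM in Ly6Ghi and 381, 389 and 376 in Ly6Glow (log2 fold change 1.32, SE 0.04). Cdkn1a was higher too (0.81, SE 0.03, but 0.57 and not called on log2(FPKM + 1)), while Socs2 fell, as did Ccnd2 (-0.75, SE 0.06). Against NL the counts were 2 of 10 higher and 3 of 10 lower in Ly6Ghi (median -0.33) and 4 of 10 higher and 3 of 10 lower in Ly6Glow (median 0.19), beside 26.3% and 36.6%, and 28.7% and 40.8% of all tested genes, and on log2(FPKM + 1) 1 and 5, and 4 and 5.

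Of 11 STAT6 targets, 0 were higher in Ly6Glow than in Ly6Ghi, also 0 at an unadjusted p and with DESeq2. With only 11 genes this is near the 9.29% of all tested genes. Stat6 itself stood at 0.50, not called, and Il13ra1 was called higher. Called lower were 5 on log2(FPKM + 1), 6 with total counts and 3 with TMM (27.3%, beside 15.9% of all tested genes, median log2 fold change -0.44). The 3 were Chil3 (277 against 1274 CPM, -2.20, SE 0.03), Mrc1 (28.6 against 119 CPM, -2.05, SE 0.05) and Pparg, named after its values were seen (0.925 against 5.57 CPM). Pparg and Chil3 are also on the list of 14 alveolar macrophage genes, of which 11 were lower in Ly6Glow than in Ly6Ghi. That list, led by Chil3, summed to 1687, 1640 and 1638 CPM in Ly6Ghi, 374, 399 and 382 in Ly6Glow, and 2048, 2034 and 2028 in NL, with no gene at 0 throughout a group. Chil3 alone gave 1274, 277 and 964 CPM of these sums as group means, and 10 of the 14 were lower in Ly6Ghi than in NL. The part of these cells in the STAT6 target values was not tested. Against NL the STAT6 targets gave 3 higher (27.3%) and 6 lower (54.5%) in Ly6Ghi (median -0.85), the higher share being near the 26.3% and the lower above the 36.6% of all tested genes. They gave 3 higher (27.3%, beside 28.7%) and 8 lower (72.7%, beside 40.8%) in Ly6Glow (median -1.40; 1 higher and 8 lower on log2(FPKM + 1)), Il4ra and Ccl24 being higher in both, though Ccl24 lost its Ly6Glow call on log2(FPKM + 1) at 0.51.

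**Figure D5:**
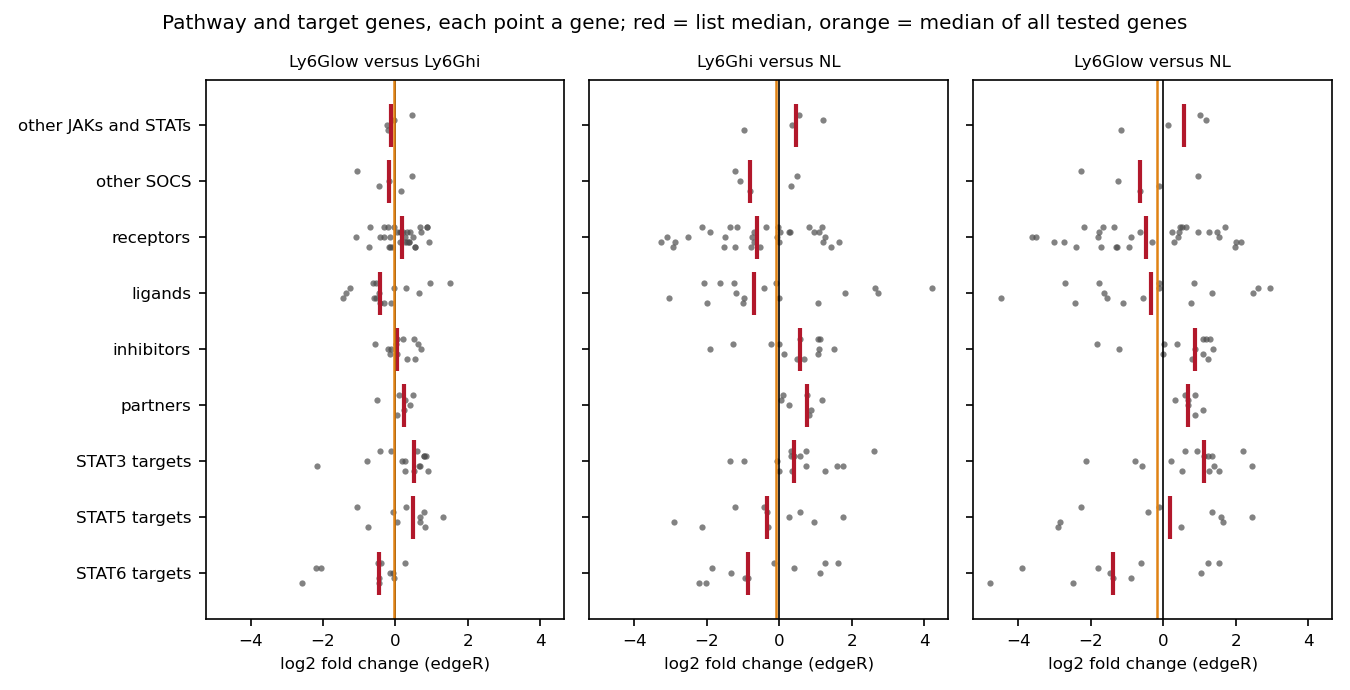
Log2 fold change (horizontal axis, edgeR) of the tested genes of each pathway and target list in the 3 comparisons, each point a gene, with a red line at the median of the list and an orange line at the median of all tested genes. The STAT6 targets had a median of -0.44 between Ly6Glow and Ly6Ghi, while those of the STAT3 and STAT5 targets were 0.52 and 0.49. On log2(FPKM + 1) the calls became 2 higher and 3 lower for STAT3 targets, and 1 and 2 for STAT5 targets.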

How the data were processed

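The authors deposited estimated counts per gene and FPKM (fragments per kilobase of transcript and 1e6 fragments) for 9 libraries from poly(A)-selected RNA. The submitters' processing notes name genome build mm10, and the aligner and counting tool are not given in the sources used here. Estimated counts were rounded to whole numbers. The 3739 genes blank in every library were left out.

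Groups and replicate numbers came from the sample titles. Counts were fitted with edgeR 4.0.16 (R 4.3.3) in 1 model of the 3 groups over all 9 libraries, with TMM factors, filterByExpr and the quasi-likelihood F test, with Benjamini-Hochberg adjustment across the 14108 tested genes. The fold limit of 0.58 is the one used by the study. SE is the log2 fold change divided by the square root of F. Log2 CPM used a prior count of 2. DESeq2 1.42.0 and limma 3.58.1 (on log2 of FPKM plus a pseudocount) were alternatives. The fits were tested on simulated data. Figures were drawn with matplotlib 3.10.9 in Python 3.11.15.

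The members and lists were chosen with earlier results of these data known. Genes named were the 9 members with their 2 nearest genes each, Ly6g, the most abundant gene of each marker list, and, for each pathway list and comparison, the 2 largest increases and decreases among called genes with at least 10 CPM in the higher group. The same rule was extended to the target lists after the values were seen, and other names are said to be so chosen or illustrate a count. Genes on more than 1 list were Il4ra, Socs2, Osm, Pim1 and Bcl6 among pathway and target lists, and Lcn2, Csf3r, Il5ra, Siglecf, Chil3, Pparg, Junb and Fos with a marker or dissociation list. Alternatives covered scaling, filters, the fold limit, FPKM, a replicate block and each library left out. Total counts without scaling factors were added after the data were seen.

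No pair of replicates agreed within sampling noise: the chi-square per degree of freedom over genes was 1.39 to 1.49 in Ly6Ghi, 1.50 to 2.41 in Ly6Glow and 1.47 to 5.33 in NL, where the second library differed most.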

Additional observations from a re-analysis of the deposited data

How the results depend on the processing

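Of the 27 log2 fold changes of the 9 genes, 27 kept their direction and their side of the limits without a count filter, in fits of the 6 libraries compared, and with unadjusted p, and 26 with DESeq2 or its size factors. With upper-quartile scaling, or at least 10 counts in every library, 22 did, on log2(FPKM + 1) 9 did and with total counts 8. Direction turned in these cases, whose cause was not tested. Stat5b between Ly6Glow and Ly6Ghi was at -0.0639, -0.06574 and -0.0639 on log2(FPKM + 1), log2(FPKM + 0.1) and log2(FPKM + 1) with FPKM of at least 1 in 3 libraries, and at -0.0396 with total counts. Stat3 between Ly6Ghi and NL was at -0.0792, -0.07972 and -0.0792 on the 3 FPKM scales and -0.0807 with total counts. Stat5a there was at -0.0440 with upper-quartile scaling, -0.02565 with at least 10 counts, -0.26, -0.30 and -0.26 on the FPKM scales and -0.32 with total counts. Stat2 between Ly6Glow and NL, at -0.01 and not called, was at 0.0759 with DESeq2 and with its size factors, and ran from -0.03706 (without NL replicate 2) to 0.0178 (without Ly6Glow replicate 3) with 1 library left out. Socs3 there was at -0.00123 on the 3 FPKM scales.

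The 3 members called between Ly6Glow and Ly6Ghi became 9 without a fold limit, 0 with a limit of 1, and 1 on log2(FPKM + 1) with or without the FPKM filter. The 4 called between Ly6Ghi and NL became 8 and 0 with those limits, and the 7 between Ly6Glow and NL became 3 with a limit of 1. The 16 other pathway genes called between Ly6Glow and Ly6Ghi became 48 without a limit and 5 with a limit of 1. Leaving out 1 library at a time gave 3, 4 and 7 members in each case, and 16 to 18, 54 to 56 and 59 to 62 other pathway genes.

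With the replicate number as a block, the members called were 3, 4 and 7 and the other pathway genes 16, 54 and 61, so no count moved. The numbers did not pair the libraries: deviations from the group means correlated at -0.07 to 0.08 between libraries of the same number and -0.10 to 0.14 between others, and the own number was highest in 3 of 18 cases.

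Counts of Socs1 and Stat5a were the lowest of the 9 genes and their SE the largest, 0.07 to 0.11.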

Other observations

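Of the cytokines that feed the pathway, 13 of the 16 tested were called between Ly6Ghi and NL, 5 higher and 8 lower, beside 26.3% and 36.6% of all tested genes. Between Ly6Glow and NL, 6 were higher and 7 lower, beside 28.7% and 40.8%. The latter counts became 3 and 9 on log2(FPKM + 1) and 4 and 10 with total counts. Il27 read 16.3 CPM in Ly6Ghi and 15.8 in Ly6Glow against 2.58 in NL (log2 fold change 2.66, SE 0.10, and 2.62, SE 0.11), while Il6 (15.1 and 10.5 against 35.9 CPM) and Lif (14.7 and 10.9 against 33.4 CPM), both of which signal to STAT3, were lower in the tumour groups. Il13, chosen after its values were seen, had counts of 75, 80 and 73 in Ly6Ghi, 24, 21 and 24 in Ly6Glow, and 16, 14 and 16 in NL. The 8 basophil and mast cell markers, led by Mcpt8, had mean sums of 44.3, 26.9 and 28.1 CPM, and Gata2 gave 24.4 CPM of the last. Of 6 tested, 4 were lower in Ly6Glow than in Ly6Ghi, and 5 and 4 were higher in Ly6Ghi and Ly6Glow than in NL, with Gata2 lower in both, while on log2(FPKM + 1) 3 and 2 were higher. The 5 eosinophil markers, led by Siglecf, had mean sums of 82.9, 36.7 and 42.0 CPM, and Siglecf, not called in any comparison by edgeR with TMM, gave 38.7 CPM of the last. Of the 5, 4 were lower in Ly6Glow than in Ly6Ghi, and 4 and 3 were higher in Ly6Ghi and Ly6Glow than in NL, with 0 lower. Against NL these became 3 higher and 1 lower, and 0 and 1, on log2(FPKM + 1), and 4 and 1, and 1 and 1, with total counts. Their part in the Il13 values was not tested. Between the tumour groups 3 ligands were higher (18.8%) and 2 lower (12.5%), beside 9.29% and 15.9% of all tested genes, which became 2 and 3 on log2(FPKM + 1) and 2 and 6 with total counts. Il15 rose (16.7 against 8.61 CPM, 0.96, SE 0.09), and Il13 was at -1.37 (SE 0.17).

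Other marker lists gave these mean sums in Ly6Ghi, Ly6Glow and NL. The 11 monocyte and macrophage genes, led by Cd68, summed to 701, 713 and 901 CPM. Of these, 1 was higher (9.09%) and 6 lower (54.5%) in each tumour group than in NL. All tested genes gave 26.3% and 36.6% in Ly6Ghi, and 28.7% and 40.8% in Ly6Glow. The 10 T and natural killer cell genes found, led by Cd3d, summed to 53.5, 38.9 and 95.1 CPM, and the 5 B cell genes found, led by Cd79a, to 46.9, 29.0 and 28.5 CPM. Against NL, 7 and 8 of 9 tested T and natural killer cell genes were lower in Ly6Ghi and Ly6Glow, beside 36.6% and 40.8% of all tested genes. Of 5 B cell genes 3 and 1 were higher, beside 26.3% and 28.7%, and 0 lower. The B cell counts became 1 higher and 0 lower, and 0 and 2, on log2(FPKM + 1), and 1 and 0, and 0 and 3, with total counts. The 7 dendritic cell genes, led by Ccr7, summed to 15.6, 15.7 and 50.5 CPM. In each tumour group 7 of 7 were lower than in NL, beside 36.6% and 40.8% of all tested genes. The 5 erythroid genes found, led by Hba-a2, summed to 0.205, 0.287 and 11.9 CPM, with Hba-a2 at 0 counts in both tumour groups. Tpsb2 was at 0 in Ly6Ghi.

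Of 15 genes known to rise during tissue dissociation, led by Junb, which is also a STAT3 target, 5 were higher (33.3%) and 3 lower (20.0%) in Ly6Glow than in Ly6Ghi, beside 9.29% and 15.9% of all tested genes, and 2 higher and 3 lower both on log2(FPKM + 1) and with total counts. Their sums were 10464, 12991 and 10075 CPM in Ly6Ghi, Ly6Glow and NL. In these TMM-scaled CPM the sum was highest in the group in which Stat3, Jak2 and Socs3 were highest. That order is given for TMM scaling alone, whose factors were 0.803 to 0.807 in Ly6Glow and 1.30 to 1.32 in NL. On FPKM Socs3 was at 389 in Ly6Glow and 390.2 in NL. The part of the dissociation genes in the values of Stat3, Jak2 and Socs3 was not tested.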
